A study of Mus musculus with 22 samples.

Results

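Motor neurons are the spinal neurons that reach muscle, and 31 genes that mark them or serve acetylcholine signalling were followed in whole spinal cord of mice carrying the E196K change in Yars, the gene for the cytosolic tyrosyl-tRNA synthetase. The genes were taken by symbol from a list of motor neuron and cholinergic genes, which was drawn up with earlier results of these data known. Of the 31 listed genes, 30 had a row in the deposited gene tables, and all 30 passed the filter on low counts, as 30 of the 16974 genes tested among 38924 gene IDs. Slc18a3, the vesicular acetylcholine transporter, was not analysed here. Its gene (GRCm38 chr14:32462438-32464850) lies within Chat, on the same strand.

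Messenger RNA was sequenced from spinal cord at 7 months of age in 22 libraries on the B6N;B6J strain background. The groups were wild type (WT, 6 libraries), E196K/+ (HET, 6 libraries) and E196K/E196K (HOM, 10 libraries). The labels give no sex and do not state that each library is a mouse of its own, so p-values here rest on the spread among libraries, which may be technical. Replicate numbers are names only.

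A spinal motor neuron makes acetylcholine from choline with choline acetyltransferase (Chat), takes choline back up through Slc5a7, and sends an axon out of the cord to muscle. Alpha motor neurons drive the muscle fibres that produce force and gamma motor neurons set the tension of muscle spindles, and among alpha neurons the fast and slow types differ in their marker genes. Dominant mutations of YARS in people cause a form of Charcot-Marie-Tooth disease, an inherited neuropathy of peripheral motor and sensory axons. Chat and the peptide genes are also expressed in some other spinal neurons, and Spp1, Mmp9 and several receptors also in glia or vessels, so a level in whole cord is a sum over cells.

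Rounded expected counts totalled between 24.45 M and 42.81 M per library. Levels are given as CPM, the count relative to the scaled total of its library, and the deposited TPM, which also corrects for transcript length, is used to compare levels between genes. Sample titles begin with 39992 (1 WT and 5 HOM libraries), 40411 (2 WT, 1 HET and 3 HOM) or 40412 (3 WT, 5 HET and 2 HOM). The labels do not explain this title prefix, which was a term of every fitted comparison. The library HOM 3 (prefix 39992) stood apart: 6 Schwann cell markers, genes of the glia of peripheral nerve, summed to 2287 CPM in it and to between 2.64 and 4.52 CPM in the other HOM libraries. Its 4 fibroblast markers summed to 435 CPM against at most 58.8, and its 11 pan-neuronal genes to 8362 CPM against at least 9422. HOM 3 had the lowest level of all 22 libraries for 9 of the 30 genes and the highest for 7. Calls and counts at an unadjusted p below 0.05 for the 30 genes are therefore given with and without it. Values of single genes without it are given where stated. WT 1, the lone WT library of prefix 39992, had the highest level of all libraries for 6 genes. That prefix holds no HET library, so without WT 1 its HOM libraries have no other genotype beside them. With the prefix term, a fit without WT 1 then compares genotypes within 40411 and 40412 only. Its values do not show the effect of WT 1 alone. Fewer motor neurons and less RNA per motor neuron cannot be told apart in bulk tissue.

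Per length, the highest levels in WT were those of Fgf1 (176 ± 10.4 TPM, SD, n = 6), Ache (163 ± 11.1 TPM) and Spp1 (140 ± 10.4 TPM). Gfra1 followed at 55.7 ± 5.53 TPM, Prph at 48.7 ± 7.97 and Calca at 40.3 ± 9.42, and these last neighbours overlapped between libraries. Chat was at 16.0 ± 1.92 TPM, below its uptake partner Slc5a7 at 30.02 ± 3.27. The transcription factors Isl1 (1.498 ± 0.353 TPM), Mnx1 (1.69 ± 0.290), Lhx3 (1.93 ± 0.261) and Isl2 (1.94 ± 0.666) and the subunit gene Chrna3 (1.70 ± 0.180) were among the lowest, with Glis3 the lowest of all at 1.47 ± 0.218. The order within this low group is within the spread of its libraries.

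**Figure D1:**
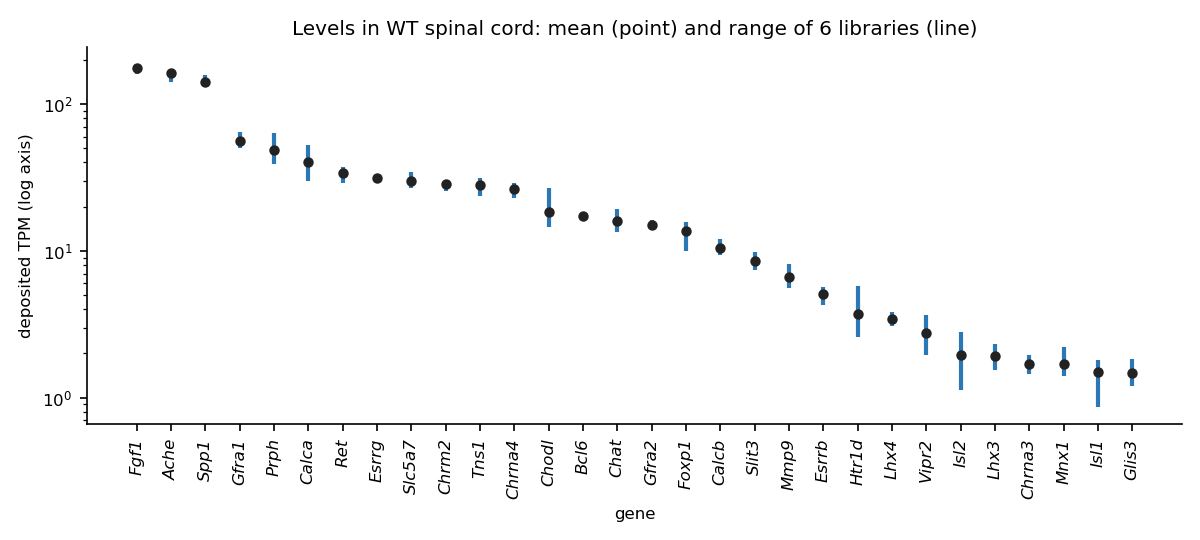
Deposited TPM of the 30 measured genes in WT spinal cord on a log axis, ordered by mean, with points for the mean and lines from the lowest to the highest of 6 WT libraries. Fgf1, Ache and Spp1 stand above the rest, and Isl2, Lhx3, Mnx1 and Isl1 lie at the right among the lowest genes.

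In HOM against WT, no gene of the 30 was called at an edgeR adjusted p below 0.05, where 15 of 16974 genes (0.0884%) were called. The fitted log2 fold change was below 0 for 21 of the 30 and above 0 for 9, with a median of -0.06 beside 0.01 over all genes tested, of which 46.1% were below 0. On log2(TPM + 1) with limma, where the median of all genes moved to 0.05, 15 of the 30 were below 0 with a median of -0.0051. At an unadjusted p below 0.05, 9 of the 30 genes were lower and 0 higher, against 1.84% and 2.77% of all genes. The 9 were Chat, Slc5a7, Spp1, Vipr2, Chodl, Fgf1, Chrm2, Prph and Calcb. Without WT 1, which leaves the comparison to prefixes 40411 and 40412, the count of lower genes was 5. Fitted on the libraries of those prefixes alone, 9 were lower and 2 higher. HET against WT also gave 0 called genes among the 30, as among all genes (0%), with 13 of 30 below 0 (46.7% of all genes), a median of 0.01, and 0 at an unadjusted p below 0.05 against 2.68% of all genes. In HOM against HET, 0 of the 30 were called, where 10 genes (0.0589%) were called in all. Here 19 of 30 were below 0 (49.0% of all genes) with a median of -0.08, and 9 were lower at an unadjusted p below 0.05, against 2.02% of all genes. The 3 comparisons share libraries, so the lower values in HOM against WT and against HET are not separate evidence.

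Leaving out HOM 3 changed the calls. In HOM against WT, edgeR then called 24 genes (0.142%), among them Chodl and Fgf1, both lower, where 0.0413% of all genes were called lower. Against HET it called 20 genes (0.118%), among them Chodl, Prph and Spp1, again lower, where 0.0649% were called lower. At an unadjusted p below 0.05, 10 of the 30 were then lower against WT (2.45% of all genes) and 1, Mmp9, was higher (3.64%), and 10 were lower against HET (2.73%). HET against WT stayed at 0 called genes (0%), with 2 of the 30, Chodl (0.20, SE 0.0807) and Prph (0.13, SE 0.0594), higher in HET at an unadjusted p below 0.05 (1.78% of all genes). The calls without HOM 3 were not kept when the title prefix was dropped from that fit too, since then 0 of the 30 were called in either comparison. With all libraries, DESeq2 called Fgf1 against WT and Chodl, Prph and Spp1 against HET.

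**Figure D2:**
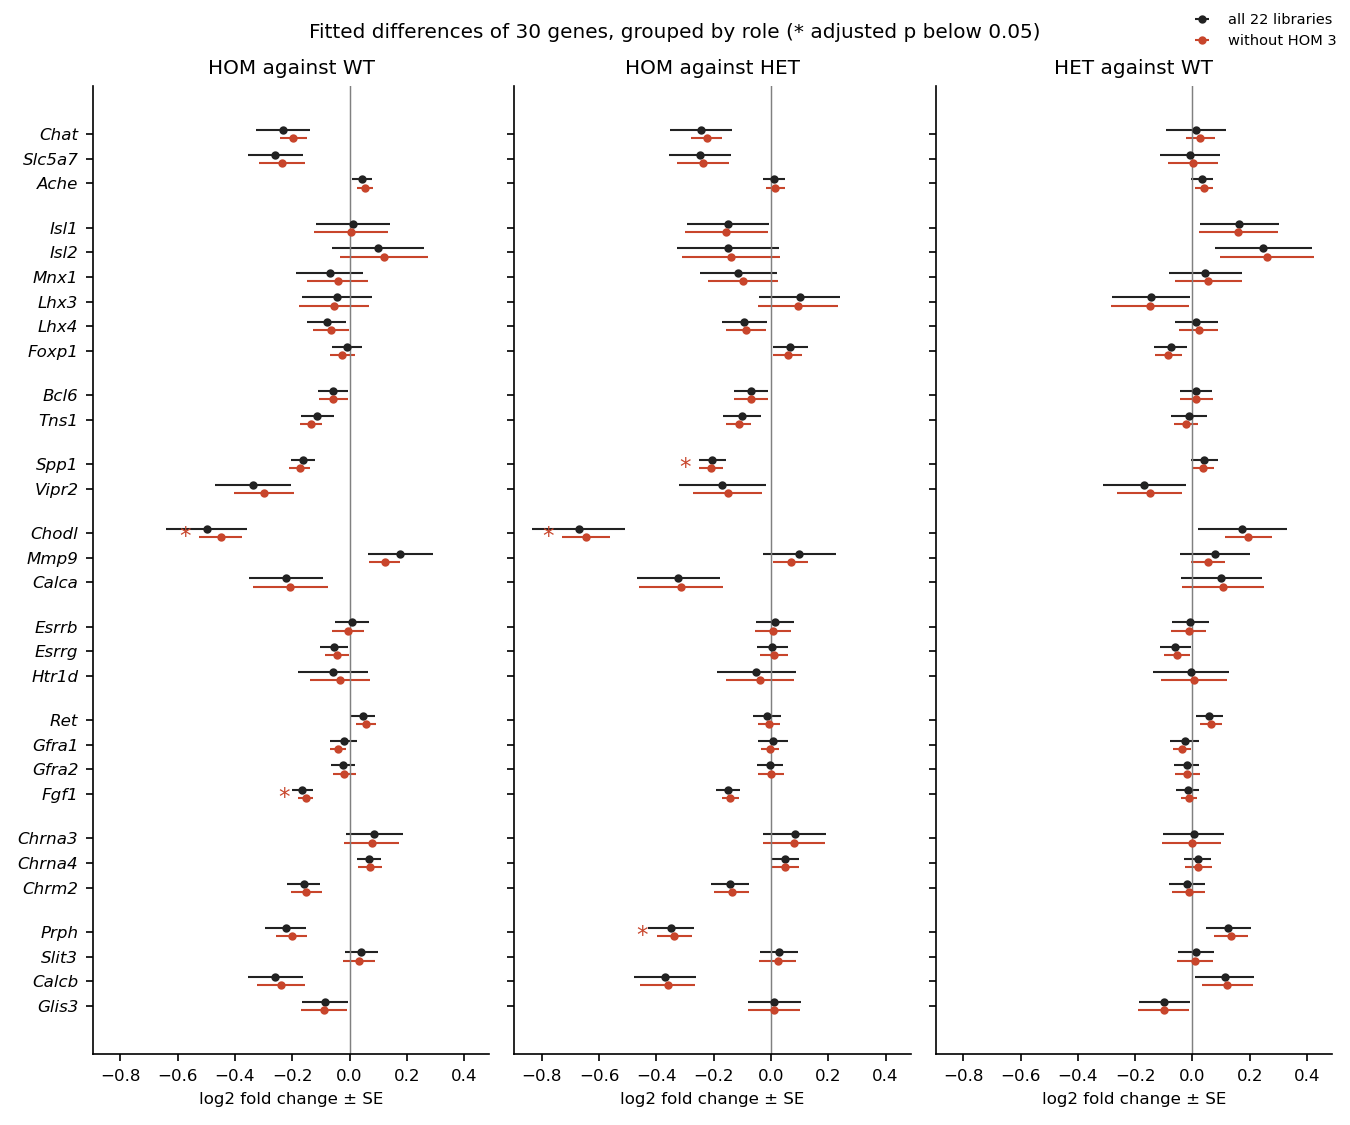
Fitted log2 fold changes with standard errors of 30 genes in the 3 comparisons, ordered by role, for all 22 libraries (black) and without HOM 3 (red), with a star where the adjusted p was below 0.05. Chodl lies farthest below 0 in both comparisons of HOM, and the stars stand on red points only: Chodl and Fgf1 against WT, and Spp1, Chodl and Prph against HET.

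To show what lies before the start of the genes with the lower values, 250 bases upstream of 4 of them are printed, read from RefSeq on GRCm38.p6. Chat and Slc5a7 serve the making of acetylcholine, and Chodl and Prph had the lowest fold changes against HET among genes with a RefSeq promoter entry. Each runs 5′ to 3′ on the strand of its gene and ends at the base before the RefSeq start. By the GRCm38 gene positions used elsewhere here, Chat reaches to chr14:32465989, so the end of its window lies within the gene. Capitals mark TATAAA, the core of a TATA box, and CANNTG, the E-box bound by basic helix-loop-helix factors, each searched on both strands, and no 2 matches overlap. The windows are chr14:32465910-32466159 (minus strand) for Chat, chr17:54299035-54299284 (minus) for Slc5a7, chr16:78930698-78930947 (plus) for Chodl and chr15:99054924-99055173 (plus) for Prph.
Chat: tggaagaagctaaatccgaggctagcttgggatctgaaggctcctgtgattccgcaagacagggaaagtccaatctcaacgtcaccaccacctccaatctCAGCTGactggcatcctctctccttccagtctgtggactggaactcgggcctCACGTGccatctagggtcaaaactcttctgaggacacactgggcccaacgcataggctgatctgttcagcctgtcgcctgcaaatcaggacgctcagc
Slc5a7: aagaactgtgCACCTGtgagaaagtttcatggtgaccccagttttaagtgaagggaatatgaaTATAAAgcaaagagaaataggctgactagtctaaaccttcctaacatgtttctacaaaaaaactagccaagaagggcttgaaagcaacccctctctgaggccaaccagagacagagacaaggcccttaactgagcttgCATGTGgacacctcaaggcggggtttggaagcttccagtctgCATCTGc
Chodl: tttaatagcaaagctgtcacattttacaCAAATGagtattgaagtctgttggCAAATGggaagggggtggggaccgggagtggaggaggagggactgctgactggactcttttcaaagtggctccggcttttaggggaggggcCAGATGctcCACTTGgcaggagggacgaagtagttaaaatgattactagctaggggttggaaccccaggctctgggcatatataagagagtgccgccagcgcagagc
Prph: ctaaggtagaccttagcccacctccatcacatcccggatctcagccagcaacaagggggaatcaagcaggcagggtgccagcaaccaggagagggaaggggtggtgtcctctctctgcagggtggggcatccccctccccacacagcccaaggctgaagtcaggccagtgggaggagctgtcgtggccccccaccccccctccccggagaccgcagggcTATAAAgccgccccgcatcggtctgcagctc

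Chat holds 2 E-boxes in this window, Slc5a7 3 and Chodl 4, and Prph has no CANNTG there. Prph has TATAAA 31 bases before its start, where a TATA box usually stands, and Slc5a7 has it 187 bases before. Only these exact letters were searched, so other forms of a TATA box were not marked in any window. Of 32851 RefSeq promoter windows of this length, 66.2% hold CANNTG and 12.4% hold TATAAA. Promoter entries were found for 26 of the 31 genes, of which 18 hold CANNTG and 5 TATAAA. Fgf1, Mmp9, Gfra2, Calcb and Ret had no entry. These matches describe the letters only.

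Among the genes of acetylcholine making and breakdown, those for synthesis and choline uptake were lower in HOM at an unadjusted p and the esterase was not. Chat ran from 21.6 to 29.2 CPM in WT (median 23.4), from 22.3 to 26.6 in HET (median 24.0) and from 13.3 to 24.3 in HOM (median 21.1). The HOM libraries lay lower as a group but overlapped both others, and the lowest, 13.3 CPM, was HOM 3, with the next at 19.4. Its log2 fold change was -0.23 (SE 0.0930, edgeR adjusted p = 0.916) in HOM against WT and -0.24 (SE 0.107, adjusted p = 1.00) against HET. Without HOM 3 it was -0.20 (SE 0.0474, adjusted p = 0.165) and -0.22 (SE 0.0541, adjusted p = 0.174). Without WT 1, at 29.2 CPM the highest of its group, it was -0.14 against WT, from prefixes 40411 and 40412 only. Within prefix 40411 and within 40412 every HOM library was below every HET library for Chat. Gm2990, on the opposite strand, overlaps Chat, and the strand setting of the counting is not given in the sources used here.

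Slc5a7, the high-affinity choline transporter of cholinergic terminals, ran from 76.2 to 107 CPM in WT (median 84.4), from 73.7 to 107 in HET (median 84.6) and from 57.8 to 87.5 in HOM (median 73.3). WT and HET covered nearly the same range, and HOM overlapped its lower part. The log2 fold change in HOM was -0.26 (SE 0.0961, adjusted p = 0.916) against WT and -0.25 (SE 0.109, adjusted p = 1.00) against HET, and -0.24 (SE 0.0805, adjusted p = 0.665) against WT without HOM 3. Ache, which breaks acetylcholine down, was at 195 ± 7.74 CPM in WT, 201 ± 6.85 in HET (SD, n = 6 each) and 200 ± 9.29 in HOM (n = 10). Its log2 difference in HOM against WT, 0.04 (SE 0.0350), was about as large as its error. Its lowest HOM value, 177 CPM, was again that of HOM 3, and the other HOM libraries lay between 194 and 209 CPM, inside or just above the WT range of 181 to 203.

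**Figure D3:**
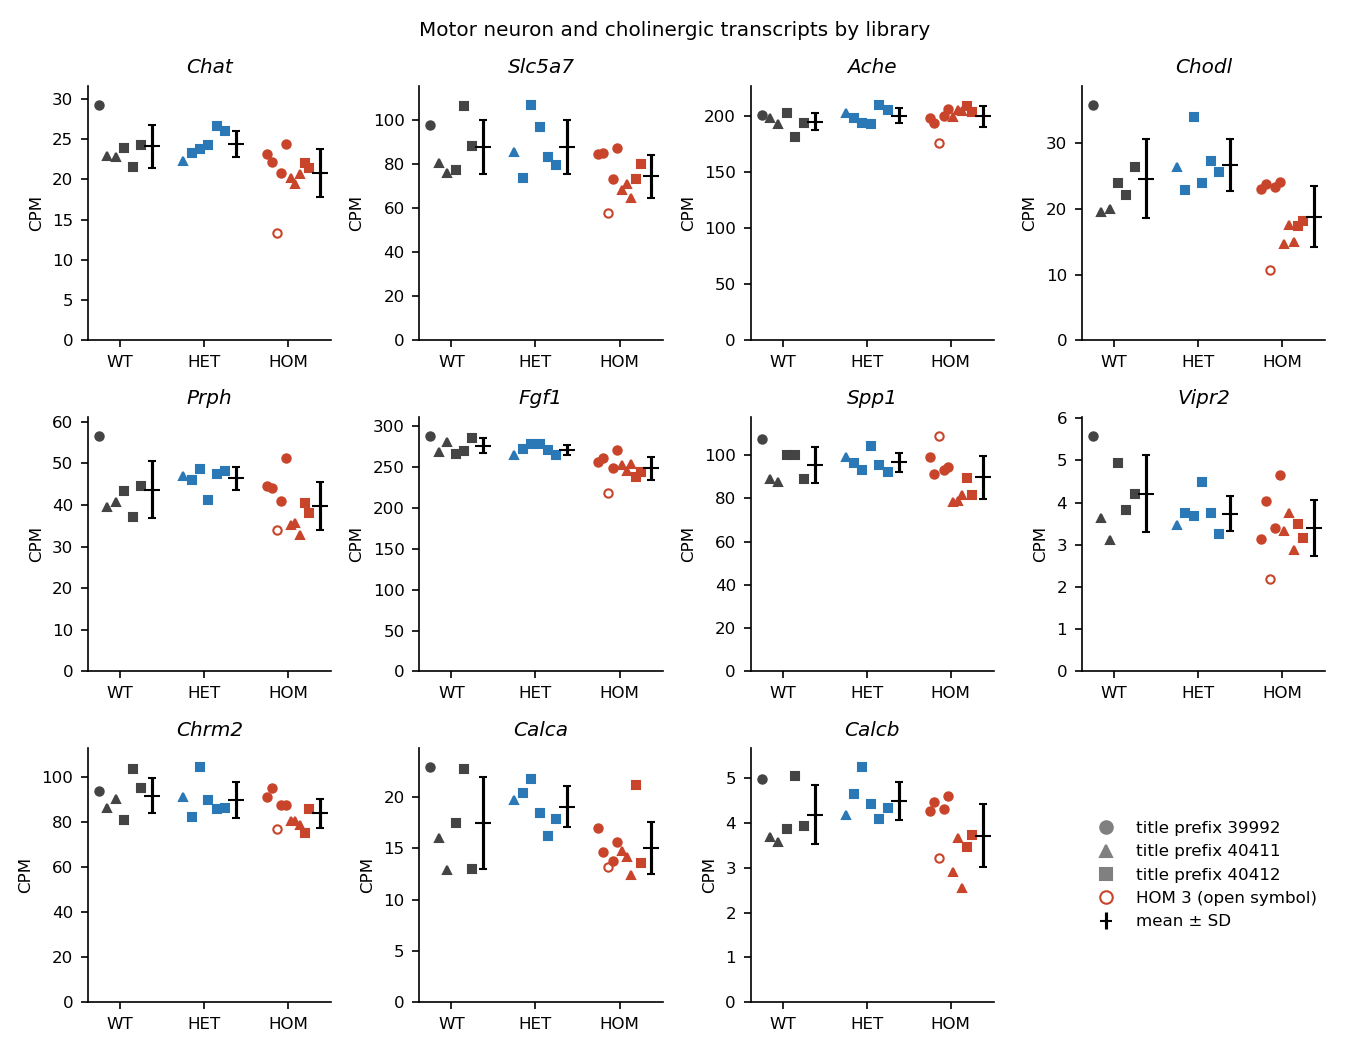
CPM of 11 genes in each library by genotype, with the marker shape for the title prefix, an open symbol for HOM 3 and the mean with SD beside each group, on axes from 0. Chat, Slc5a7, Chodl, Prph and Fgf1 lie lower in HOM with overlap between groups, Ache does not, and HOM 3 is the lowest library of all for Chat, Slc5a7, Ache, Chodl, Fgf1 and Vipr2.

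The identity factors, which specify motor neurons during development and persist in part in the adult, did not pass the test in any comparison, and none had an unadjusted p below 0.05. Isl1 and Isl2, the LIM-homeodomain factors of early motor neurons, had means of 1.60, 1.85 and 1.67 CPM and of 1.60, 1.86 and 1.81 CPM in WT, HET and HOM. Mnx1, also called Hb9, had 2.00, 1.96 and 1.97 CPM, and Lhx3, a partner of Isl1 in the motor neuron complex, had 1.53, 1.36 and 1.48 CPM. Lhx4, its close relative, had 8.84, 9.03 and 8.15 CPM, and Foxp1, which marks motor neurons of the limb column, had 29.5, 27.3 and 30.4 CPM. In HOM against WT their log2 fold changes ran from -0.08 for Lhx4 (SE 0.0690) to 0.10 for Isl2 (SE 0.161). At these low counts the standard errors of Isl1 (0.129), Isl2, Lhx3 (0.123) and Mnx1 (0.117) were larger than that of Chat (0.0930), so these data say less about them than about Chat.

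Bcl6, a transcriptional repressor, and Tns1, a focal adhesion protein, mark skeletal as against visceral motor neurons. Bcl6 was at 33.5 ± 1.94, 34.6 ± 3.08 and 32.0 ± 2.74 CPM in WT, HET and HOM (SD, n = 6, 6 and 10). Tns1 was at 162 ± 12.9, 159 ± 7.25 and 154 ± 17.4 CPM, with 200.4 CPM in HOM 3 and 161 in the next highest HOM library. Neither was called with or without that library, and Tns1 had a log2 fold change in HOM against WT of -0.11 (SE 0.0571) with it and -0.13 (SE 0.0391, adjusted p = 0.397) without it.

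The alpha motor neuron genes Spp1 and Vipr2 both had lower values in HOM, while of 3 other alpha and slow markers 2 were above 0 and 0 were called in HOM against WT, with a median of 0.02. Of these, Rbfox3, the neuronal protein NeuN, was at 149 CPM in WT and 149.9 in HOM (log2 fold change 0.02, SE 0.0340), and Stk32a, a kinase, at 35.0 and 33.8 CPM (-0.09, SE 0.0744). Spp1, which encodes osteopontin, ran from 87.4 to 107.6 CPM in WT (median 94.5), from 92.2 to 104.0 in HET (median 95.8) and from 78.3 to 108.8 in HOM (median 90.4). The highest library of all was HOM 3, and the other HOM libraries ended at 98.8 CPM. Its log2 fold change was -0.16 (SE 0.0427, adjusted p = 0.419) in HOM against WT and -0.20 (SE 0.0482, adjusted p = 0.319) against HET. Without HOM 3, Spp1 was called against HET (-0.21, SE 0.0411, adjusted p = 0.0293), with every HOM library below every HET library within both prefixes that hold HET, and was just short of the threshold against WT (-0.17, SE 0.0365, adjusted p = 0.0596). Without WT 1 as well, the call against HET was lost (-0.21, adjusted p = 0.0720), and without HOM 3 and the prefix term too (-0.14, adjusted p = 0.395). With all libraries and no prefix term the values were -0.09 against WT and -0.11 against HET.

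Vipr2, a receptor for the peptides VIP and PACAP, ran from 3.11 to 5.58 CPM in WT (median 4.01), from 3.26 to 4.48 in HET (median 3.72) and from 2.19 to 4.66 in HOM (median 3.36). The groups overlapped widely, with WT 1 the highest and HOM 3 the lowest library of all. The log2 fold change in HOM against WT was -0.34 (SE 0.133, adjusted p = 0.916), -0.30 without HOM 3 (SE 0.105, adjusted p = 0.665), and -0.21 without WT 1. On log2(TPM + 1) with limma it was 0.02, above 0 but below the median of all genes there, 0.05.

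Among fast motor neuron genes, Chodl had the lowest log2 fold change of all 30 genes in both comparisons of HOM, Calca was lower against HET at an unadjusted p, and Mmp9 had higher values in HOM. Chodl encodes chondrolectin, a membrane lectin of fast motor neurons. It ran from 19.5 to 35.9 CPM in WT (median 23.0), from 22.9 to 34.0 in HET (median 26.0) and from 10.7 to 24.2 in HOM (median 17.9). The lowest was HOM 3, the highest WT 1, and most HOM libraries lay below all HET libraries, with overlap at 22.9 to 24.2 CPM.

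The fitted log2 fold change of Chodl was -0.50 in HOM against WT (a ratio of 0.708, SE 0.142, adjusted p = 0.624) and -0.67 against HET (a ratio of 0.628, SE 0.161, adjusted p = 0.383). Without HOM 3 it fell by 0.45 (SE 0.0748, adjusted p = 0.00561) against WT and by 0.65 (SE 0.0846, adjusted p = 0.000374) against HET on the log2 scale. The call against WT was lost when WT 1 was left out as well (-0.39, adjusted p = 0.159), while that against HET was kept (-0.61, adjusted p = 0.00166). Both were lost without HOM 3 and without the prefix term (-0.32, adjusted p = 0.758, and -0.44, adjusted p = 0.327). In HET against WT the difference had the other sign, 0.17 (SE 0.155), and was not called.

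Levels of Chodl differed between prefixes in WT and in HOM, and within each prefix every HOM library was below every WT library. In HET they were alike, at 26.4 CPM in the 1 library of 40411 and a mean of 26.8 in 40412. In prefix 39992, WT 1 was at 35.9 CPM, 4 HOM libraries lay between 23.1 and 24.2 and HOM 3 was at 10.7. In prefix 40411 the WT libraries were at 19.5 and 20.0 CPM and the HOM libraries between 14.7 and 17.6, with HET 1 at 26.4. In prefix 40412 the WT libraries lay between 22.2 and 26.4 CPM, the HET libraries between 22.9 and 34.0, and the HOM libraries at 17.5 and 18.2. The ratios of means, on the log2 scale, were -0.77, -0.33 and -0.44 in these 3 prefixes. This separation within all 3 prefixes was seen for 2 of the 30 genes, Chodl and Fgf1, and for 0.259% of all genes tested.

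**Figure D4:**
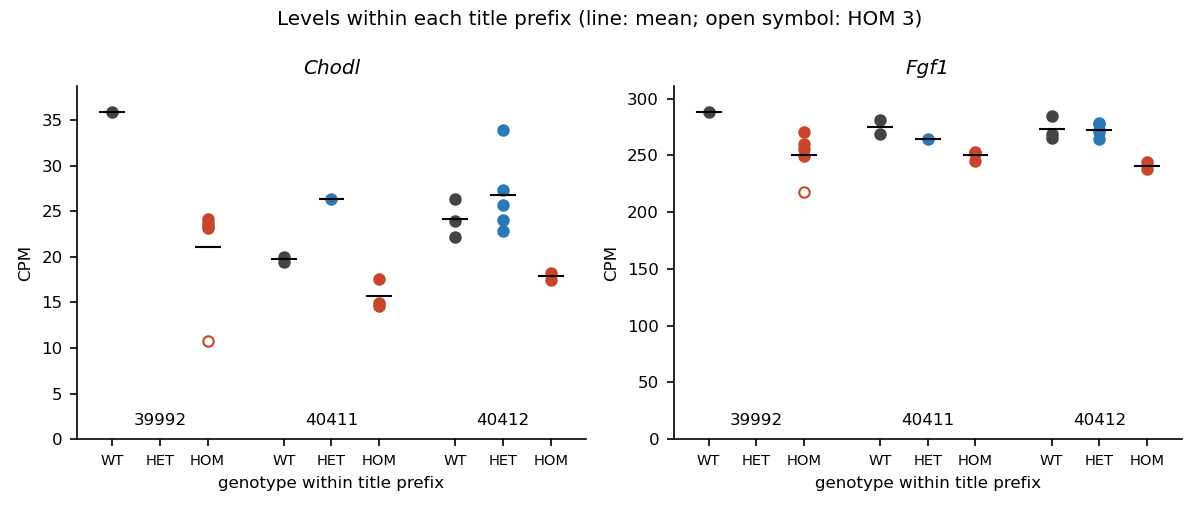
CPM of Chodl (left) and Fgf1 (right) in each library by genotype within each title prefix, with a line at the mean and an open symbol for HOM 3, on axes from 0. In each of the 3 prefixes every HOM library lies below every WT library for both genes, and the level of Chodl in WT and HOM differs between prefixes.

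Mmp9, a secreted metalloproteinase of fast motor neurons, was at 11.0 ± 1.64 CPM in WT, 11.0 ± 0.568 in HET (SD, n = 6 each) and 14.2 ± 4.51 in HOM (n = 10). HOM 3 was at 26.0 CPM and the next HOM library at 15.2, and without HOM 3 the HOM mean was 12.8 ± 1.82 CPM. The log2 fold change in HOM against WT was 0.18 (SE 0.113, adjusted p = 0.916), and 0.12 (SE 0.0544, adjusted p = 0.806) without HOM 3. Chodl and Mmp9, both fast markers, thus had fitted values of opposite sign. The difference between them was not tested.

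Calca, which encodes calcitonin and the peptide CGRP, ran from 12.9 to 22.9 CPM in WT (median 16.7), from 16.2 to 21.8 in HET (median 19.0) and from 12.4 to 21.2 in HOM (median 14.4). In HOM, HOM 9 was at 21.2 CPM and all others at 16.9 or lower, while WT covered both ends. The log2 fold change was -0.22 (SE 0.129) in HOM against WT and -0.32 (SE 0.145, adjusted p = 1.00) against HET, where it was -0.50 without HOM 9. Calcb, its neighbour on chromosome 7 that encodes the beta form of CGRP, ran from 3.58 to 5.05 CPM in WT (median 3.90), from 4.08 to 5.24 in HET (median 4.37) and from 2.54 to 4.59 in HOM (median 3.70). Calcb had a log2 fold change of -0.26 (SE 0.0956, adjusted p = 0.916) against WT and -0.37 (SE 0.108, adjusted p = 0.660) against HET. The genes are close paralogs, and RSEM divides reads that map to more than 1 gene, so each value is uncertain to the extent that reads were shared, which was not measured here.

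In whole cord, as sums over its cells, the gamma motor neuron genes had values close to WT. Esrrb and Esrrg, orphan nuclear receptors of the estrogen-related family, had means of 11.49, 11.3 and 11.8 CPM and of 88.3, 84.3 and 86.2 CPM in WT, HET and HOM. Htr1d, a serotonin receptor, had 3.52, 3.62 and 3.30 CPM. Their log2 fold changes in HOM against WT were 0.01 (SE 0.0596) for Esrrb, -0.05 (SE 0.0487) for Esrrg and -0.06 (SE 0.123) for Htr1d. None had an unadjusted p below 0.05 in any comparison, and the difference between alpha, fast and gamma genes was not tested. Of 6 other gamma markers 3 were below 0 and 0 were called in HOM against WT, and Creb5, a transcription factor, had the single unadjusted p below 0.05 (7.28 CPM in WT and 6.58 in HOM, log2 fold change -0.30, SE 0.123, adjusted p = 0.916). Slow motor neurons had no gene among the 30. The slow marker Sv2a, a synaptic vesicle protein, was at 529 CPM in WT, 545 in HET and 546 in HOM (log2 fold change in HOM against WT 0.05, SE 0.0321, and 0.06, SE 0.0252, adjusted p = 0.765 without HOM 3). As a sum over the cells of whole cord, this level is not a measure of slow motor neurons alone.

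Of the trophic genes, the ligand Fgf1 had lower values in HOM, and no receptor of the GDNF family had an unadjusted p below 0.05 in any comparison. Fgf1, the acidic fibroblast growth factor abundant in motor neurons (GRCm38 chr18:38838673-38929472, minus strand), ran from 265 to 288 CPM in WT (median 275), from 264 to 278 in HET (median 271) and from 218 to 270.2 in HOM (median 251). The groups met between 264 and 270.2 CPM, where HOM 5 was the highest HOM library and HOM 3 the lowest. Its log2 fold change was -0.17 (a ratio of 0.892, SE 0.0367, adjusted p = 0.123) in HOM against WT, the smallest adjusted p of the 30 genes in that comparison, and -0.15 (SE 0.0419, adjusted p = 0.608) against HET. Without HOM 3 it fell by 0.15 on the log2 scale against WT (SE 0.0260, adjusted p = 0.00561) and was at -0.14 (SE 0.0295, adjusted p = 0.0583) against HET. The call against WT was lost without WT 1 as well (adjusted p = 0.0692) and without the prefix term (adjusted p = 0.0640), with fold changes of -0.15 and -0.13. On log2(TPM + 1) with limma the value was -0.09 (SE 0.0649).

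Within the prefixes 39992, 40411 and 40412 the log2 ratio of means of Fgf1 in HOM against WT was -0.20, -0.13 and -0.18. Arhgap26, on the opposite strand, overlaps Fgf1, and reads of the overlap could be divided differently where strand was not used. Ret, the signalling receptor for GDNF family ligands, was at 136 ± 9.43, 141 ± 5.79 and 142 ± 8.34 CPM in WT, HET and HOM (SD, n = 6, 6 and 10). Gfra1, which binds GDNF, was at 91.8 ± 5.38, 88.5 ± 2.51 and 93.6 ± 9.24 CPM, and Gfra2, which binds neurturin, at 28.6 ± 1.79, 28.3 ± 0.607 and 27.8 ± 1.35. Their log2 fold changes in HOM against WT lay between -0.02 and 0.05. Of 8 other trophic genes tested, such as Ntrk2 and Ngfr, 0 were called in any comparison.

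Of the acetylcholine receptors, the muscarinic Chrm2 had lower values in HOM and the nicotinic subunits did not. Chrm2, the M2 receptor found opposite cholinergic synapses on motor neurons, ran from 81.0 to 104 CPM in WT (median 92.2), from 82.2 to 105 in HET (median 88.0) and from 75.1 to 95.4 in HOM (median 83.3). The ranges overlapped over most of their length. Its log2 fold change was -0.16 (SE 0.0587, adjusted p = 0.916) against WT and -0.14 (SE 0.0664, adjusted p = 1.00) against HET. Chrna3, a subunit of ganglionic receptors, was at 2.89 ± 0.336, 2.96 ± 0.280 and 3.06 ± 0.366 CPM and Chrna4, a subunit of central receptors, at 65.7 ± 3.93, 66.9 ± 4.44 and 68.7 ± 2.71 CPM in WT, HET and HOM. Both nicotinic genes had log2 fold changes above 0 in HOM against WT, of 0.09 (SE 0.0979) and 0.07 (SE 0.0428), with no call. Of 17 other cholinergic genes, which include the remaining receptor subunits and the choline kinase Chka, 8 were below 0 and 0 were called in HOM against WT, with a median of 0.02.

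Prph, which encodes peripherin, an intermediate filament of neurons that project out of the central nervous system, ran from 37.2 to 56.6 CPM in WT (median 42.1), from 41.1 to 48.7 in HET (median 47.1) and from 32.7 to 51.3 in HOM (median 39.2). WT 1 was the highest WT library and HOM 5 the highest HOM library, both of prefix 39992, and the lowest HOM libraries were of prefix 40411 and HOM 3. The log2 fold change in HOM was -0.22 (SE 0.0711, adjusted p = 0.863) against WT and -0.35 (SE 0.0807, adjusted p = 0.311) against HET. Without HOM 3 it was -0.20 (SE 0.0545, adjusted p = 0.291) against WT and fell by 0.34 on the log2 scale (SE 0.0615, adjusted p = 0.0173) against HET. The call against HET was kept without WT 1 as well (adjusted p = 0.0498) and lost without the prefix term (-0.20, adjusted p = 0.529). HET itself was above WT by 0.13 (SE 0.0783), which was not called.

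Within both prefixes that hold HET, every HOM library was below every HET library for 6 of the 30 genes: Calcb, Chat, Chodl, Fgf1, Prph and Spp1. Of all genes tested, 1.29% were separated in this way. Prefix 40411 holds a single HET library, so the separation there rests on it. The other genes of the list, Slit3, a guidance cue made by motor neurons, and Glis3, a zinc finger factor, had means of 15.2, 15.4 and 15.9 CPM and of 5.42, 4.91 and 5.25 CPM in WT, HET and HOM, with no unadjusted p below 0.05.

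**Figure D5:**
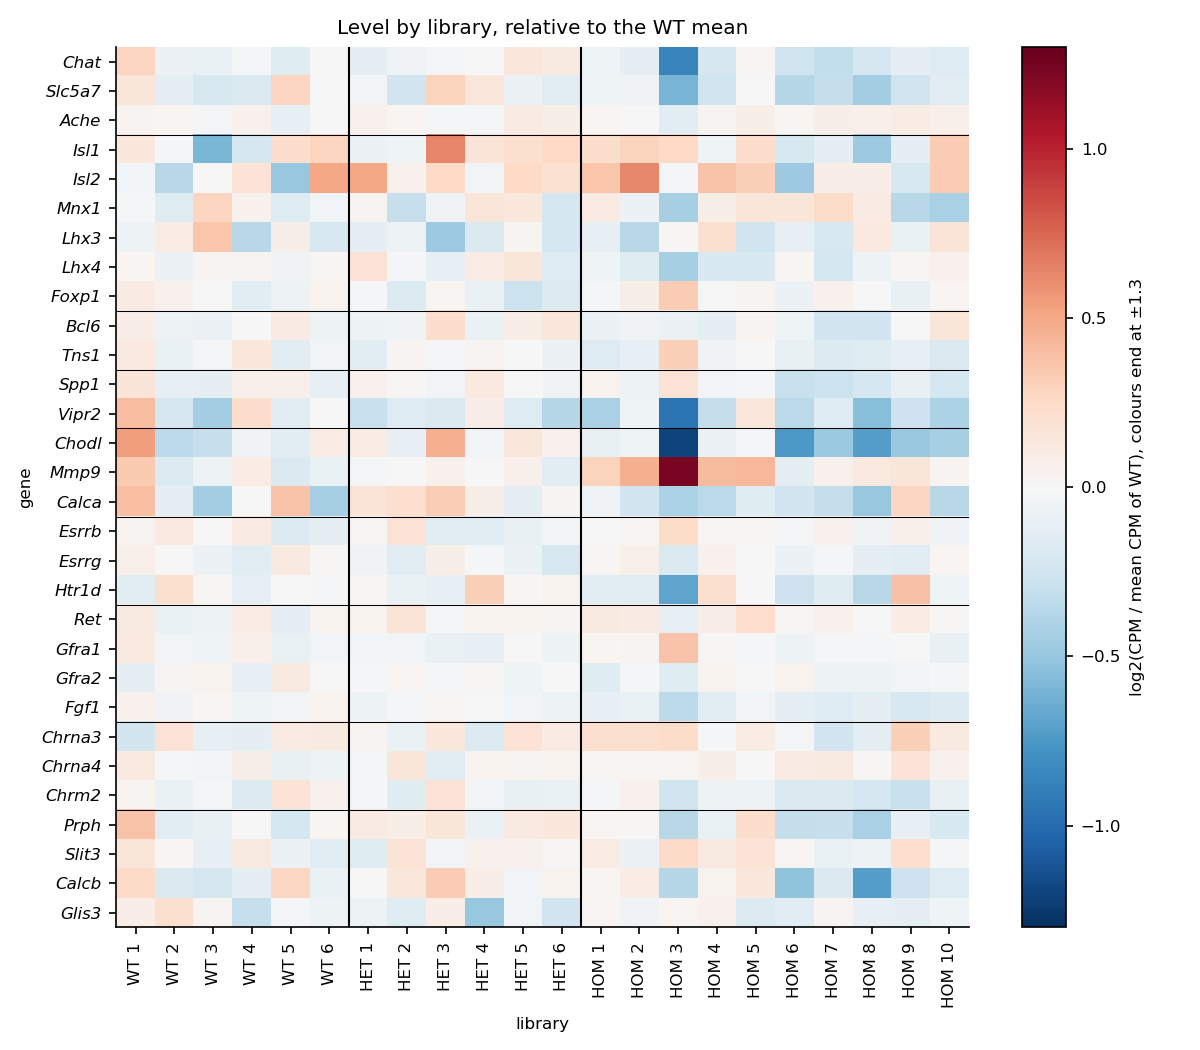
Level of each of 30 genes in each library as log2 of its CPM over the WT mean, with genes in rows by role, libraries in columns and colours that end at ±1.3. The column of HOM 3 holds the strongest colours of both signs. Blue in HOM is seen, among others, for Chat, Slc5a7, Chodl, Prph, Vipr2, Calca, Calcb and, faintly, Fgf1.

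Of the 3 neurofilament genes, which belong to a list of genes shared by all neurons, Nefl and Nefm were lower in HOM than in WT at an unadjusted p below 0.05 and Nefh was not. Nefl, the light neurofilament subunit, was at 1836 ± 123 CPM in WT, 1869 ± 44.5 in HET (SD, n = 6 each) and 1695 ± 162 in HOM (n = 10), and Nefm, the medium subunit, at 1973 ± 141, 2051 ± 125 and 1805 ± 198. In HOM against WT their log2 fold changes were -0.15 (SE 0.0509, adjusted p = 0.916) and -0.15 (SE 0.0626, adjusted p = 0.916). Without HOM 3, Nefl was called against WT (-0.13, SE 0.0232, adjusted p = 0.0150) and both were called against HET (-0.17, SE 0.0262, adjusted p = 0.00266 for Nefl and -0.19, SE 0.0335, adjusted p = 0.0120 for Nefm). Nefh, the heavy subunit, was at 948 ± 107, 1001 ± 51.7 and 925 ± 105 CPM, with a log2 fold change in HOM against WT of -0.07 (SE 0.0731), and -0.04 (SE 0.0464) without HOM 3. Whether these calls hold without the prefix term or without WT 1 was not tested. The list of 11 pan-neuronal genes had 8 below 0 with a median of -0.05 in HOM against WT, and 7 with a median of -0.04 without HOM 3. The 4 above 0 without HOM 3 included Tubb3 (0.05, SE 0.0297) and Eno2 (0.03, SE 0.0217). Uchl1 was also above 0 (0.06, SE 0.0292, edgeR adjusted p = 0.814), with an unadjusted p below 0.05. These genes are expressed in neurons of all kinds, and their part in the values of the motor neuron genes was not tested.

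Markers of other cells gave these values. Sensory neuron markers summed to between 7.96 and 9.15 CPM in WT, 8.15 and 9.10 in HET and 8.22 and 9.26 in HOM apart from HOM 3 at 11.1, and the defining marker Mrgprd was at 0 in every library. Oligodendrocyte markers summed to a mean of 20921 CPM in WT, 21376 in HET and 19390 in HOM, and astrocyte markers to 4980, 5086 and 4634 CPM. Without HOM 3, the lowest library for both, the HOM means were 19894 and 4726 CPM. These means take no account of the title prefix. In the fit with the prefix term, the median log2 fold changes in HOM against WT were -0.04 for oligodendrocyte and -0.07 for astrocyte markers. Without HOM 3 these medians were -0.02 and -0.03. Of 4 visceral motor neuron and cholinergic interneuron markers 3 were below 0 and 0 were called in HOM against WT, and Zeb2, a transcription factor, had an unadjusted p below 0.05 (146 CPM in WT and 137 in HOM, log2 fold change -0.10, SE 0.0334, adjusted p = 0.863). In HOM against WT, microglia and macrophage markers had 3 of 7 below 0 and endothelial and mural markers 0 of 4, with 0 called in each. Without HOM 3 these counts were 3 of 7 and 1 of 4, again with 0 called. The part of these cells in the results above was not tested.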

How the data were processed

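The genes and lists were chosen with earlier results of these data known. The authors deposited 1 RSEM gene table per library with expected counts, TPM and FPKM, per the file headers. Bowtie2 2.2.0 and RSEM 1.2.12 are named per the submitters' processing notes. Their genome build, annotation release and strand setting are not given in those sources. RNA was poly(A) selected and libraries were stranded, per the labels' protocols. Gene IDs were paired with symbols and GRCm38 positions (37607 of 38924 matched). The authors' expected counts share reads among similar genes (14.41% to 16.23% of values per library were not whole) and were rounded. Genes were kept with filterByExpr and scaled by TMM. All 22 libraries were fitted together by edgeR 4.0.16 (robust quasi-likelihood, R 4.3.3) on genotype plus title prefix, with Benjamini-Hochberg adjustment over 16974 genes and calls below 0.05. Standard errors came from the F statistic. CPM divides by each library's TMM-adjusted total over tested genes. Without HOM 3, the filter kept 16951 genes. The deposited TPM, scaled to length and a fixed total by the authors' RSEM run, was used for levels between genes and, as log2(TPM + 1), in limma 3.58.1. The deposited FPKM was not used. Other alternatives were DESeq2 1.42.0, DESeq2 size factors, no prefix term, no filter, the compared groups alone, prefixes 40411 and 40412 alone, and each library left out. Leaving out HOM 3 together with the prefix term or with WT 1 was added after seeing the data. The edgeR fit was tested on simulated data that held no prefix effect and no library like HOM 3. That test therefore says nothing about either. Every gene of the list is named with its level. Library ranges are given for Chat, Slc5a7 and genes with an unadjusted p below 0.05 in any comparison, and from the other lists up to 3 genes with such a p in HOM against WT.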

Additional observations from a re-analysis of the deposited data

Results flagged for a closer look

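Within each genotype, the highest and lowest library of each gene were set against the rest of the group, and 12 of 90 groups held a library whose distance from its neighbour was large for the range of the group. Chance gives this in about 1 in 20 groups. HOM 3 accounts for 7 of the 12. It was low for Chat (13.3 CPM, next 19.4) and Ache (177, next 194), and high for Foxp1 (37.3, next 31.3), Tns1 (200.4, next 161), Mmp9 (26.0, next 15.2), Esrrb (13.6) and Gfra1 (119, next 94.4). WT 1 was high for Chat (29.2 CPM, next 24.2), and HOM 9 for Calca (21.2, next 16.9). In HET, HET 4 was high for Htr1d (4.37 CPM, next 3.63) and low for Prph (41.1, next 45.9), and HET 2 was high for Ret (152, next 141).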

How the results depend on the processing

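Among 31 alternatives (22 that leave out 1 library each), the number of the 30 genes called in HOM against WT was 1 with DESeq2 (Fgf1, -0.17, adjusted p = 0.00842) and 0 to 2 with 1 library left out. In HOM against HET it was 3 with DESeq2 (Chodl adjusted p = 0.0189, Prph 0.0350, Spp1 0.0438), 1 with prefixes 40411 and 40412 alone (Chodl, -0.61, adjusted p = 0.0144), 2 without HOM 3 and WT 1, and 0 to 3 with 1 library left out. Of the single libraries left out, HOM 3 alone gave calls. All genes called in HOM against WT numbered 15, 8 with prefixes 40411 and 40412 alone, 22 with DESeq2, and 10 to 24 with 1 library left out (24 without HOM 3). In HOM against HET they numbered 10, 18 without the prefix term, 19 with DESeq2, 23 without the prefix term and HOM 3, 20 without HOM 3 and WT 1, and 7 to 20 with 1 library left out (20 without HOM 3). The median of the 30 genes in HOM against HET was -0.08, -0.017 on log2(TPM + 1), and -0.091 to -0.022 with 1 library left out (-0.022 without HET 1). In HOM against WT, 5 to 10 genes were lower at an unadjusted p below 0.05 with 1 library left out. The 5 came without WT 1, when only prefixes 40411 and 40412 still held HOM beside WT. Vipr2 in HOM against WT was 0.0199 on log2(TPM + 1) (adjusted p = 0.979), the single reversal among 19 gene values. That scaling moved the median of all genes from 0.01 to 0.05, which Vipr2 still lay below, and the median of the 30 genes in HOM against WT to -0.0051. Without the prefix term and HOM 3, Calcb and Prph were at -0.15 and -0.11 against WT and Chrm2 at -0.09 against HET. The causes were not tested. HET against WT called 0 genes in every alternative. No paired analysis was possible because the replicate numbers follow accession order.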
